A study of Rattus norvegicus with 12 samples.

Results

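Transcripts of the cardiac calcium cycle were measured in left ventricles of rats that had run on a treadmill for 7 weeks and of sedentary rats. They are the sarcoplasmic reticulum pump Atp2a2, its inhibitor Pln, the release channel Ryr2, the calcium store Casq2, the sodium-calcium exchanger Slc8a1, the plasma membrane pumps Atp2b1, Atp2b2 and Atp2b4, and the inositol trisphosphate receptors Itpr1 and Itpr2. The members were all probe sets annotated to exactly 1 of these symbols. They were 27 probe sets for 10 genes, of 7006 probe sets with a single gene and 4736 such genes on the array. There were 6 exercised samples (numbered 1, 4, 5, 7, 8 and 9 in their labels) and 6 sedentary samples (13, 16, 17, 21, 23 and 24), each with total RNA of heart left ventricle on 1 single-channel array. Neither the strain, sex and age of the rats nor the running schedule is given in the sources used here. Whether each sample came from a separate animal is not stated in the labels, so p-values cover only sample-to-sample spread, part of which may be technical.

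At each heartbeat a small entry of calcium opens the ryanodine receptor Ryr2, and calcium stored on Casq2 leaves the sarcoplasmic reticulum and starts contraction. Relaxation follows as the pump SERCA2, encoded by Atp2a2, returns calcium to the store, and phospholamban, encoded by Pln, slows that pump until it is phosphorylated. The exchanger Slc8a1 and the Atp2b pumps carry calcium out of the cell, and the ratio of SERCA2 to phospholamban is widely used as a measure of relaxation capacity.

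The sequences before the start sites of Atp2a2, Pln and Atp2b4 are shown because the Atp2a2 to Pln ratio and Atp2b4 carry the main comparisons below. They are the 250 bases upstream of the RefSeq start of each gene in rat build GRCr8, written 5′ to 3′ on the gene's strand. All 10 genes matched the promoter table. Capitals mark the GC box GGGCGG and the CCAAT box CCAAT, searched on both strands, where CCGCCC and ATTGG are the other strand.
Atp2a2, chr12:39733269-39733518, plus strand: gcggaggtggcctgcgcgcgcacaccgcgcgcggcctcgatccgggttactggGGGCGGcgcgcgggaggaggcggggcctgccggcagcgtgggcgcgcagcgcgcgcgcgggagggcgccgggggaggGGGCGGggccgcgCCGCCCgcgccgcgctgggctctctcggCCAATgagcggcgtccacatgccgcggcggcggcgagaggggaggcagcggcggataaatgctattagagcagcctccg
Pln, chr20:33172244-33172493, plus strand: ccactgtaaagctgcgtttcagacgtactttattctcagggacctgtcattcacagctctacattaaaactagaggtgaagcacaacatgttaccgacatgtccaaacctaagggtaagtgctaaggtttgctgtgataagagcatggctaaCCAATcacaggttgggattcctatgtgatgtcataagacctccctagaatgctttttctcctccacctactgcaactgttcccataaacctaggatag
Atp2b4, chr13:47758877-47759126, minus strand: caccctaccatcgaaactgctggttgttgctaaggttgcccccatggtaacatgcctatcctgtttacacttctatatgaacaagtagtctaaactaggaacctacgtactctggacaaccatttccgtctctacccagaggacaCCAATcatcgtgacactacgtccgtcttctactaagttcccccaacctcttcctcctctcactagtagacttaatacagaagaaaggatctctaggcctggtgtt

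The upstream window of Atp2a2 was 80.0% G and C, above 98.9% of the 33469 rat promoters of the same length, and held 3 GC boxes and 1 CCAAT box. The window of Pln was 44.0% G and C and that of Atp2b4 46.4%, and each held 1 CCAAT box and no GC box. GC boxes were found in 30.5% and CCAAT boxes in 34.0% of all windows. The matches describe letters in these windows, and the arrays measured transcripts and not promoter activity.

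None of the members passed the test between exercised and sedentary samples. Of the 27 probe sets, 22 were bright enough to be tested, with at least 1 for each of the 10 genes, and 0 of 22 had an adjusted p under 0.05 (limma with a mean-variance trend, Benjamini-Hochberg adjustment over all 6555 tested probe sets). Over all tested probe sets 0.32% passed, 0.275% as higher and 0.0458% as lower in exercised samples. An unadjusted p under 0.05 was found for 3 of the 22 (13.6%), against 16.2% of all tested probe sets. Of the 3, 1 was higher, where 9.26% of all were, and 2 were lower, where 6.91% of all were. By sign 9 were higher and 13 lower in exercised samples, where 51.4% of all were higher, and the median log2 difference was -0.02 beside 0.00 for all. The exact rank-sum test with the same adjustment called 0 of all 6555 tested probe sets. Its 0 among the members therefore adds nothing to the limma result. All log2 differences subtract the sedentary mean from the exercised mean of log2(intensity + 363), where the added constant makes changes of dim probe sets look smaller than they are.

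**Figure D1:**
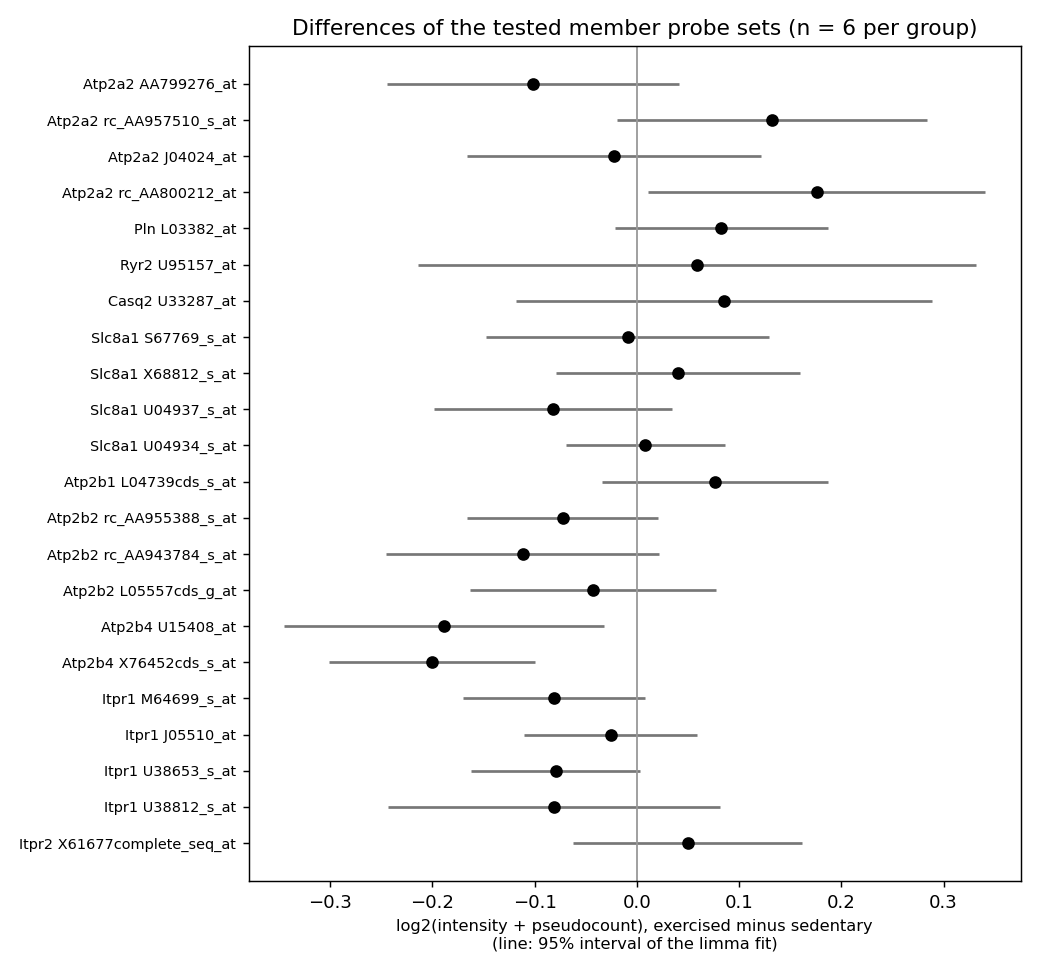
Log2 difference (exercised minus sedentary) of each of the 22 tested probe sets on the x axis, with the 95% interval of the limma fit as a line, n = 6 per group. The interval included 0 for 19 of the 22, and the others were 1 probe set of Atp2a2 above 0 and both of Atp2b4 below 0.

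The arrays limit how small a difference could be seen. The 95% intervals reached from 0.078 to 0.27 log2 on either side of the estimate, and no interval extended beyond 0.35 log2 from 0. Array medians of intensity differed little, from 840 to 875. Before the single genes are described, 1 array needs naming. The array of sedentary 17 stood apart, since its mean correlation with the other arrays was 0.963 against 0.984 to 0.989 for the rest, and it deviated most from its group mean on 44.0% of all tested probe sets. By that same measure it deviated most on 9 of the 22 tested members. Among all member probe sets, tested or not, it lay above all other 11 arrays on 10 and below all of them on 6. How often it lay outside the other 11 arrays over the whole table was not counted. Without sedentary 17, 0 of the 22 passed (lowest limma adjusted p = 0.0643), with 10 higher and 12 lower. The ventricular marker genes, among them Myh6, Myl2 and Tnni3, were bright on every array, with a summed intensity over 8 genes of 365970.0 to 391550.0 in exercised and 359790.0 to 395280.0 in sedentary samples.

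**Figure D2:**
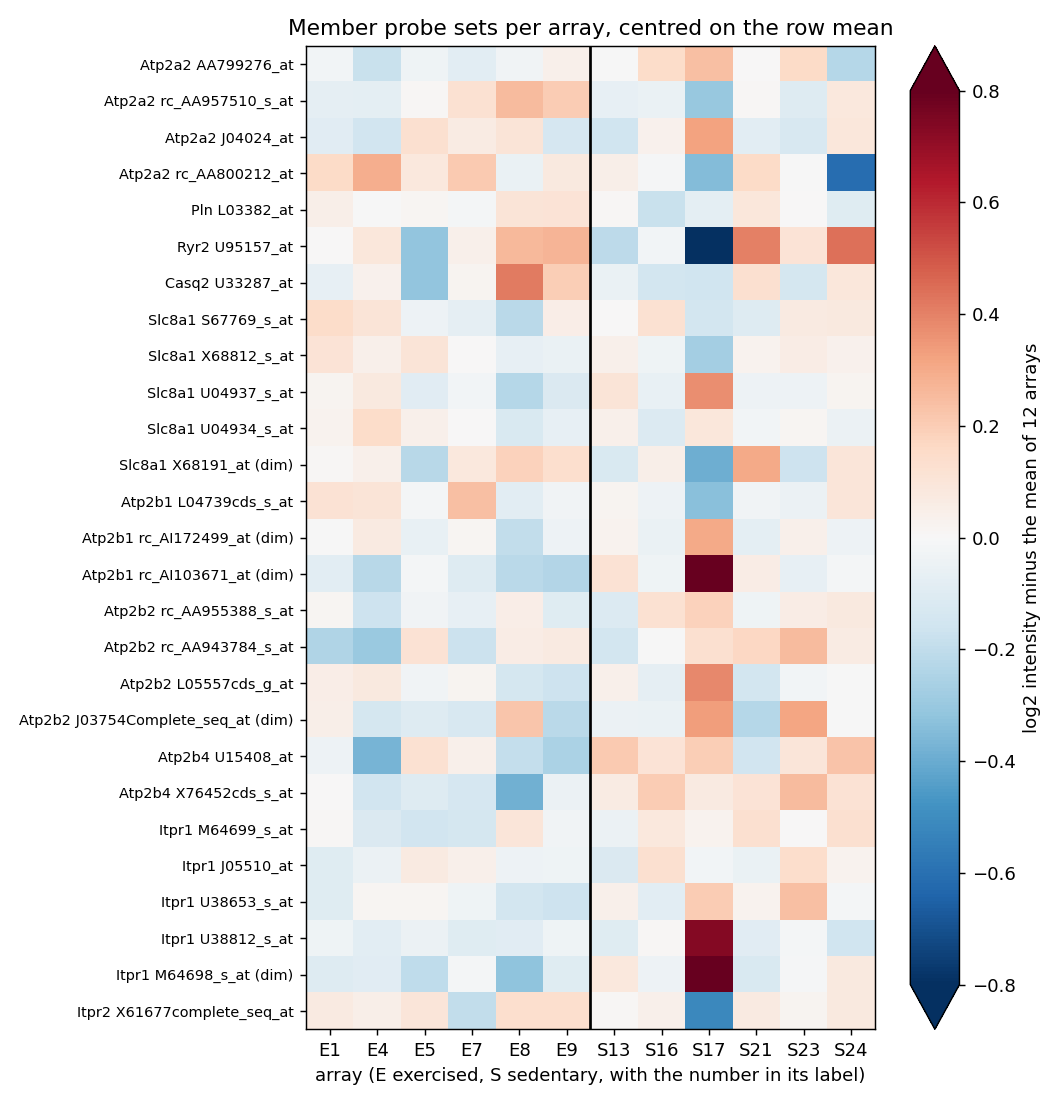
Log2 intensity of the 27 member probe sets (rows) on the 12 arrays (columns, E exercised and S sedentary with the number in the label), centred on the mean of each row, with no added constant and with colours saturating at both ends of the scale. Sedentary 17 lies outside the other 11 arrays in 16 rows, 10 above and 6 below, and the rows marked dim are the 5 probe sets that were not tested.

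The pump gene Atp2a2 was read by 4 probe sets, which differed in sign. The brightest, AA799276_at, ranged from 41414 over a median of 45786 to 48161 in exercised samples and from 39922 over 49340 to 55210 in sedentary samples. Exercised values all lay below the sedentary mean of 48763, yet the groups overlapped, because sedentary 24 was the lowest of all arrays. The log2 difference was -0.10 ± 0.067 (SE, n = 6, limma adjusted p = 0.457). Without sedentary 17, the highest array, it was -0.06 (limma adjusted p = 0.652), and without sedentary 24 it was -0.16 (limma adjusted p = 0.1995). This probe set reached 61.4% to 84.9% of the highest intensity in the table, 64994, and only 10 of 8740 probe sets were brighter. Whether its scale is compressed near that ceiling was not tested.

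The other probe sets of Atp2a2 did not follow the brightest one. On rc_AA957510_s_at the exercised samples ranged from 3395 over a median of 3744 to 4273 and the sedentary ones from 2895 over 3438 to 3789. The 3 highest arrays were exercised 7, 8 and 9, and the lowest was sedentary 17, and the log2 difference was 0.13 ± 0.071 (SE; n = 6; limma, adjusted p = 0.374). On rc_AA800212_at the exercised samples ranged from 836 over 941 to 1058 and the sedentary ones from 567 over 862 to 961. All 6 exercised samples exceeded the sedentary mean of 805, with sedentary 17 and 24 far below the others. Its log2 difference was 0.18 ± 0.077 (SE, n = 6, limma adjusted p = 0.272), and 0.11 without sedentary 24, the lowest array. J04024_at had sedentary 17 at 1731 against at most 1515 elsewhere. Its log2 difference was -0.02 ± 0.067 (SE, n = 6, limma adjusted p = 0.886), and with 1 array left out it lay between -0.05 without sedentary 13 and 0.03 without sedentary 17.

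Over the 12 arrays, with group means removed, the probe sets of Atp2a2 showed no shared pattern that passed the test. Among their 6 pairs, Pearson's r lay from -0.64 (J04024_at with rc_AA800212_at, permutation p = 0.0524; Spearman's rho = -0.70, permutation p = 0.0198) to 0.22. None passed after adjustment over the 22 pairs of probe sets of a single member gene, where the lowest adjusted p for Atp2a2 was 0.332 for Pearson's r and 0.218 for Spearman's rho.

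Phospholamban was read by 1 probe set, L03382_at. Its intensity ranged from 18338 over a median of 18955 to 19977 in exercised and from 16378 over 18067 to 19705 in sedentary samples. The 6 exercised arrays all exceeded the sedentary mean of 18034 and lay within a narrower range than the sedentary ones, and the groups overlapped. The log2 difference was 0.08 ± 0.049 (SE, n = 6, limma adjusted p = 0.412), or 1.06-fold with a 95% interval of 0.985 to 1.14. Without sedentary 17 it was 0.08 (limma adjusted p = 0.492). In these bulk samples, fewer cells of a type and less RNA per cell cannot be told apart.

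**Figure D3:**
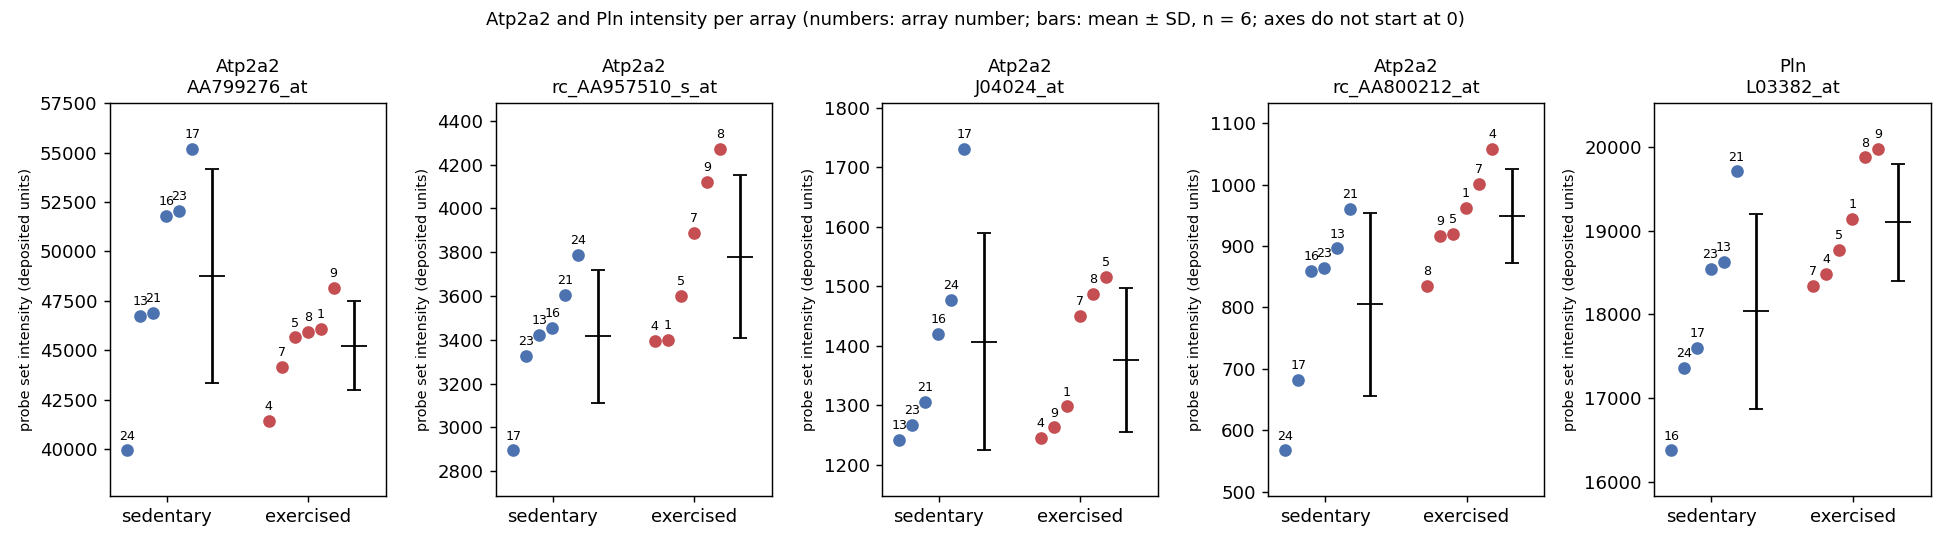
Intensity per array (y axes, deposited units, not starting at 0) of the 4 Atp2a2 probe sets and the Pln probe set in sedentary (blue) and exercised (red) samples, each point numbered by its label and spread sideways by value, with mean ± SD (n = 6) as bars. The brightest Atp2a2 probe set lies lower in most exercised samples, whereas rc_AA957510_s_at, rc_AA800212_at and Pln lie higher, with overlap in every panel.

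The Atp2a2 to Pln ratio was formed per array from the brightest probe set of each gene. Probe sets differ in their response, so the level of the ratio is no ratio of molecules and only its difference between arrays was read. In exercised samples 1, 4, 5, 7, 8 and 9 the ratio was 2.41, 2.24, 2.43, 2.41, 2.31 and 2.41. In sedentary samples 13, 16, 17, 21, 23 and 24 it was 2.51, 3.16, 3.14, 2.38, 2.81 and 2.30. The exercised arrays lay close together, while sedentary 16, 17 and 23 were far above the rest and sedentary 21 and 24 fell among the exercised values.

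The mean ratio was 2.37 ± 0.075 in exercised and 2.72 ± 0.38 in sedentary samples (SD, n = 6). The difference was -0.19 ± 0.084 on the log2 scale (SE), a 0.879-fold ratio, and all 6 exercised samples lay below the sedentary mean. An exact two-sided permutation test over the 924 splits of the arrays gave p = 0.0649, where the smallest p it allows is 0.00216. Adjusted over the 4 pairs of an Atp2a2 and a Pln probe set it was 0.26 by the same exact test. Without sedentary 17 the difference was -0.14 (exact permutation p = 0.0909). Without sedentary 21 it was -0.22 (p = 0.0325) and without sedentary 24, the lowest sedentary array, -0.23 (p = 0.0108), both by the exact permutation test. The smallest difference with 1 array left out was -0.14, without sedentary 16. Over the 12 such fits the exact permutation p ran from 0.0108 to 0.123, not adjusted over the 4 pairs.

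The sign of the ratio depended on the probe set of Atp2a2. With J04024_at the log2 difference was -0.11 (exact permutation p = 0.351), with rc_AA957510_s_at it was 0.06 (p = 0.463) and with rc_AA800212_at 0.17 (p = 0.203). The mean over the 4 Atp2a2 probe sets gave -0.02 (exact permutation p = 0.797).

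**Figure D4:**
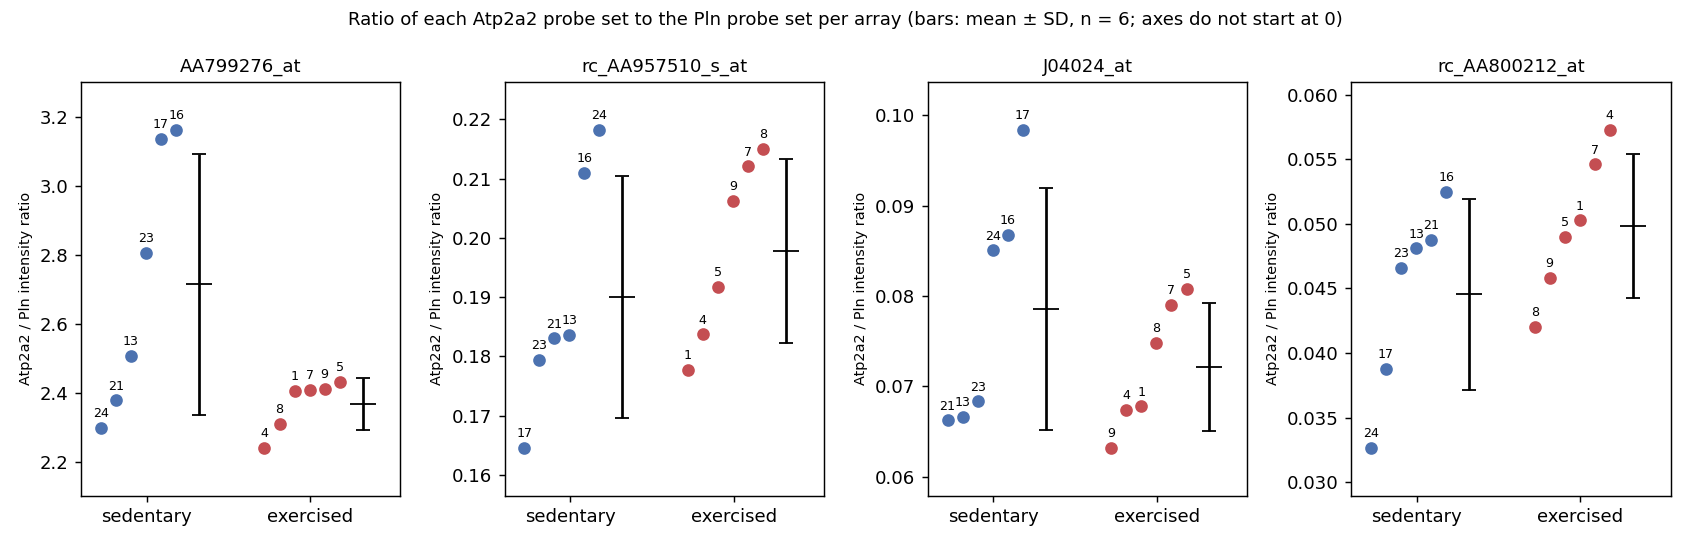
Ratio of each Atp2a2 probe set to the Pln probe set per array (y axes, ratio of intensities, not starting at 0) in sedentary (blue) and exercised (red) samples, with mean ± SD (n = 6) as bars. With AA799276_at the exercised ratios lie between 2.24 and 2.43, while sedentary 23, 17 and 16 lie between 2.81 and 3.16, and the groups overlap in all panels.

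The release channel and the calcium store varied more between arrays of a group than between groups. Ryr2, on U95157_at, ranged from 565 over a median of 736 to 850.14 in exercised and from 337 over 726 to 955 in sedentary samples. The medians were nearly alike, and sedentary 17 was the lowest array by a wide margin. Its log2 difference was 0.06 ± 0.13 (SE, n = 6, limma adjusted p = 0.834), with the widest interval of all members (-0.21 to 0.33). With 1 array left out it lay between -0.06 without sedentary 17 and 0.12 without sedentary 24. Casq2, which binds calcium inside the store, ranged on U33287_at from 3206 over 4077 to 5324 in exercised and from 3578 over 3748 to 4372 in sedentary samples. Exercised samples held both the lowest and the highest value. The difference was 0.09 ± 0.095 (SE, n = 6, limma adjusted p = 0.665), with 0.02 without exercised 8, the highest array, and 0.15 without exercised 5, the lowest.

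The exchanger Slc8a1, the main route of calcium out of the cardiac muscle cell, was read by 5 probe sets, of which 4 were tested. The brightest, S67769_s_at, ranged from 2806 over a median of 3280.1 to 3613 in exercised and from 2949 over 3355 to 3554 in sedentary samples. The 2 groups covered almost the same range, and the log2 difference was -0.01 ± 0.065 (SE, n = 6, limma adjusted p = 0.957). X68812_s_at gave 0.04, U04934_s_at 0.01 and U04937_s_at -0.08, with limma adjusted p of 0.727, 0.924 and 0.461. On U04937_s_at sedentary 17 read 1060.0, the other sedentary arrays read 786 to 881, and the difference without it was -0.04. The dim probe set X68191_at lay at 235 ± 22.4 in exercised and 224 ± 37.3 in sedentary samples (SD, n = 6). The interval of U04934_s_at was the narrowest of all members, from -0.07 to 0.09. Across arrays U04937_s_at and U04934_s_at followed each other (Pearson's r = 0.79, permutation p = 0.00159, adjusted p = 0.035 over 22 pairs; Spearman's rho = 0.87, permutation p = 0.00055, adjusted p = 0.0121), with r = 0.91 within exercised and 0.78 within sedentary samples and 0.74 over all without exercised 8 and sedentary 17. No other of the 22 pairs passed.

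Among the plasma membrane pumps, which bind calmodulin and export calcium, Atp2b4 came nearest to the threshold. On X76452cds_s_at the exercised samples ranged from 796 over a median of 955 to 1041 and the sedentary ones from 1083 over 1122 to 1236. The groups did not overlap, with exercised 8 lowest and sedentary 23 highest. Means were 947 ± 84.4 and 1140.4 ± 61.0 (SD, n = 6), and the log2 difference was -0.20 ± 0.047 (SE, limma adjusted p = 0.0749). That is 0.87-fold with a 95% interval of 0.812 to 0.933, for intensity plus the added constant. Both understate the change in intensity itself. With a constant of 50 in its place the log2 difference was -0.26 (limma adjusted p = 0.0759). This probe set was 1 of 22 tested members without overlap between the groups, where 2.07% of all tested probe sets had none and 0.58% had none and were lower.

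The second probe set of Atp2b4, U15408_at, was also lower. It ranged from 1308 over 1564 to 1844 in exercised and from 1524 over 1884 to 1985 in sedentary samples, and 5 of 6 exercised values lay below the sedentary mean of 1840.4. Sedentary 21 was the exception in its group, below 3 of the exercised arrays. The log2 difference was -0.19 ± 0.073 (SE, n = 6, limma adjusted p = 0.224). The deviations of the 2 probe sets from their group means were nearly unrelated over the 12 arrays (Pearson's r = 0.094, permutation p = 0.816; Spearman's rho = 0.007, permutation p = 0.991). With 1 array left out the difference of X76452cds_s_at lay between -0.22 and -0.17 and did not pass in any of the 12 fits (lowest adjusted p = 0.0617). With array weights estimated by limma, where sedentary 17 had a weight of 0.117, the adjusted p of X76452cds_s_at was 0.0299. The same weights raised the count over all 6555 tested probe sets from 21 to 160, so passing under them is not particular to Atp2b4.

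**Figure D5:**
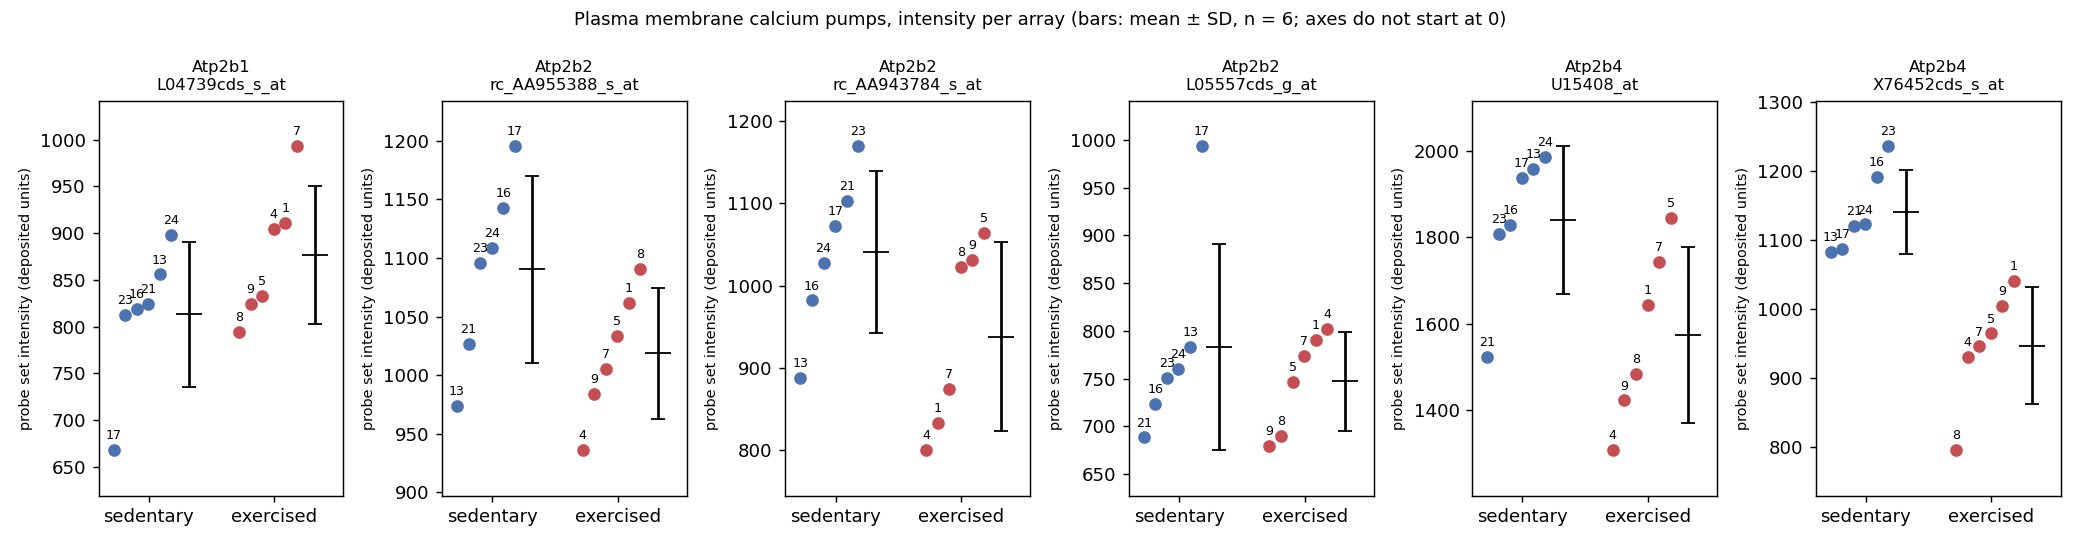
Intensity per array (y axes, deposited units, not starting at 0) of the tested plasma membrane pump probe sets in sedentary (blue) and exercised (red) samples, with mean ± SD (n = 6) as bars. On X76452cds_s_at of Atp2b4 all exercised values (796 to 1041) lie below all sedentary values (1083 to 1236), and the other panels overlap.

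Atp2b1, the pump found in nearly all cells, had 1 tested probe set. L04739cds_s_at ranged from 794 over 869 to 993 in exercised and from 668 over 822 to 899 in sedentary samples, and 5 of 6 exercised values exceeded the sedentary mean of 813. The log2 difference was 0.08 ± 0.052 (SE, n = 6, limma adjusted p = 0.472). Sedentary 17 was the lowest array, and without it the difference was 0.04, while it was 0.05 without exercised 7, the highest. Its other probe sets, rc_AI172499_at and rc_AI103671_at, were too dim to be tested, at 384 ± 23.6 against 404 ± 41.8 and at 139 ± 8.72 against 174 ± 46.9 (exercised against sedentary, SD, n = 6).

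Atp2b2, a pump best known from neurons and the inner ear, was lower by sign on its 3 tested probe sets, and none passed. The brightest, rc_AA955388_s_at, ranged from 936 over 1019.5 to 1091 in exercised and from 973 over 1102 to 1195.5 in sedentary samples, and the log2 difference was -0.07 ± 0.044 (SE, n = 6, limma adjusted p = 0.420). The probe set rc_AA943784_s_at gave -0.11 ± 0.062 and L05557cds_g_at -0.04 ± 0.056, with limma adjusted p of 0.389 and 0.716. The last gave 0.01 without sedentary 17, which read 994 there while the other sedentary arrays read 688 to 783, and -0.07 without sedentary 21. The fourth probe set, J03754Complete_seq_at, was not tested and lay at 363 ± 41.8 and 392 ± 61.7 (exercised and sedentary, SD, n = 6). The summed intensity of neuron markers over 6 genes was 3853 to 4363 in exercised and 3974 to 4378 in sedentary samples. Of the 4 tested neuron markers, 2 were higher and 2 lower by sign. The part of neurons in the values of Atp2b2 was not tested.

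The inositol trisphosphate receptors release stored calcium in answer to hormones rather than to each heartbeat. Itpr1 was lower by sign on its 4 tested probe sets, and none passed. M64699_s_at ranged from 988 over 1045 to 1173 in exercised and from 1061 over 1141 to 1200.3 in sedentary samples, and the log2 difference was -0.08 ± 0.042 (SE, n = 6, limma adjusted p = 0.357). U38653_s_at ranged from 433 over 464 to 491 and from 457 over 497 to 574, with all 6 exercised values below the sedentary mean of 510.5 and a difference of -0.08 ± 0.039 (SE, n = 6, limma adjusted p = 0.330). These 2 probe sets overlapped between the groups, and their deviations over the arrays ran in opposite directions (Pearson's r = -0.61, permutation p = 0.0331, adjusted p = 0.332; Spearman's rho = -0.55, permutation p = 0.0754, adjusted p = 0.48).

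The remaining tested probe sets of Itpr1 gave -0.03 for J05510_at and -0.08 for U38812_s_at, with limma adjusted p of 0.755 and 0.606. U38812_s_at rested on sedentary 17, at 799 against 430.11 to 482 on the other 11 arrays, and gave 0.00 without it. M64698_s_at was not tested, at 177 ± 12.9 and 221 ± 64.9 (exercised and sedentary, SD, n = 6), again with sedentary 17 highest. Itpr2, the main form in heart muscle cells, ranged on X61677complete_seq_at from 388 over 471 to 487 in exercised and from 310 over 454 to 468 in sedentary samples. Exercised 7 and sedentary 17 were each far below the other 5 arrays of their group. The log2 difference was 0.05 ± 0.052 (SE, n = 6, limma adjusted p = 0.647), with 0.00 without sedentary 17 and 0.08 without exercised 7.

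Smooth muscle also expresses Itpr1 and Atp2b4. All 4 tested smooth muscle markers were higher by sign and none passed. Their log2 differences ran from 0.04 for Myh11 to 0.34 for Acta2, and Actg2 came nearest to the threshold (0.17, limma adjusted p = 0.0729). The summed intensity over 5 smooth muscle genes was 5914 to 8179 in exercised and 4944 to 6994 in sedentary samples. Endothelial markers summed to 2809 to 3136 and 3030 to 3203 over 3 genes, with 1 higher and 2 lower by sign. All 5 fibroblast markers were higher by sign, with sums of 27839 to 45673 and 23317 to 31008, and none passed. Of 3 macrophage markers 1, Lyz2, passed and was higher, with sums of 6202 to 12921 in exercised and 4430 to 5484 in sedentary samples. The sums of the 2 erythroid markers were 10974 to 35876 and 34491 to 39935. Those of the 6 skeletal muscle markers were 7706 to 8435 and 7646 to 8690. The 3 atrial markers summed to 9390 to 26071 and 7960 to 36926, and none passed. Of these, Nppa ranged from 7240 to 23843 in exercised and from 5870 to 26157 in sedentary samples. Myl7 ranged from 1323 to 1499 in exercised but from 1136 to 8652 in sedentary samples. Myl4 ranged from 803 to 905 in exercised and from 844 to 2117 in sedentary samples. Whether atrial tissue in a sample affected the Atp2a2 to Pln ratio was not tested. The part of other cells in the values of the calcium genes was not tested.

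The partners of the calcium cycle likewise had no member past the threshold. Of a list of 69 genes, 46 had a probe set of their own and 41 were tested on their brightest probe set, and 0 passed in either direction, where 0.413% of all 3876 genes passed (limma, adjusted p under 0.05). An unadjusted p under 0.05 was found for 4 of the 41, where 16.1% of all genes had one. By sign 20 were higher and 21 lower, with a median log2 difference of 0.00 beside 0.00 over all 3876 genes. Among 10 sarcoplasmic reticulum partners 7 were higher and 3 lower, with a median of 0.05. Of 8 calcium channel subunits 3 were higher and 5 lower, with a median of -0.01, and of 17 kinase, phosphatase, calmodulin and receptor genes 8 were higher and 9 lower, with a median of -0.03. Of the other exporters and of the store-operated and mitochondrial entry genes, 3 each were tested, with 1 higher and 2 lower in both. Genes of the list without a probe set of their own, such as sarcolipin and triadin, were not analysed here.

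The members of that list with the smallest p were Camk2d, the cardiac CaM kinase that phosphorylates phospholamban, at a log2 difference of 0.18, and the receptor Itpr3 at 0.18. The calcium-binding protein Sri, sorcin, gave 0.10 and the calcineurin subunit Ppp3ca 0.13. On the lower side Jph2, which holds the surface membrane and the reticulum together, gave -0.14, the protein kinase A catalytic subunit Prkaca -0.13, the phosphatase inhibitor Ppp1r1a -0.12 and the beta-1 adrenergic receptor Adrb1 -0.14. Their limma adjusted p lay between 0.241 for Camk2d and 0.356 for Ppp3ca. Other tested probe sets of Camk2d, Itpr3 and Prkaca had the opposite sign, at -0.04, -0.01 and 0.06, and that of Ppp1r1a had the same sign at -0.14. Camk2d, Itpr3 and Sri exceeded the sedentary mean in 6 of 6 exercised samples, and Adrb1 lay below it in 6 of 6. Without sedentary 17 the difference of Adrb1 was -0.07 and that of Sri 0.06, and without exercised 8 that of Ppp3ca was 0.08.

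Across the 12 arrays Atp2a2 followed none of the other members beyond the test. With group means removed, Pearson's r of AA799276_at with the brightest probe set of each of the 9 other genes ran from -0.70 for Atp2b1 (permutation p = 0.0239, adjusted p = 0.215; Spearman's rho = -0.69, permutation p = 0.0147, adjusted p = 0.132) to 0.45 for Atp2b2 (permutation p = 0.218, adjusted p = 0.531; Spearman's rho = 0.57, permutation p = 0.0902, adjusted p = 0.406). Without sedentary 17 and 24, the arrays farthest from the median of Atp2a2, the value for Atp2b1 was -0.48 and that for Atp2b2 0.72. Atp2a2 and Pln gave r = 0.058 (permutation p = 0.899) and rho = 0.056 (permutation p = 0.884), with r = 0.77 within the 6 exercised and -0.12 within the 6 sedentary samples, a difference that was not tested.

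The probe sets most like AA799276_at over the 12 arrays were those of Fdps (Pearson's r = 0.89), Smarcd2 (0.89) and Otc (0.87), the highest of 5373 tested probe sets of other single genes. Those most like Pln were Amacr (0.91), Pmpca (0.89) and Adap1 (0.85), the highest of 5376. These values describe 12 arrays and include the difference between the groups.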

How the data were processed

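The authors deposited linear probe set intensity values for 8740 probe sets on 12 arrays. How they were scanned, background-corrected and scaled is not given in the sources used here. An unknown global scaling would hide a change in total RNA, so each difference is measured against the bulk of the table. Probe sets were named from the platform's annotation (7006 with 1 gene, 308 with several, 1426 unnamed here), and all 10 member genes matched RefSeq by Entrez ID. Promoter sequences are RefSeq's, build GRCr8.

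Values under 0 were set to 0. Values were transformed as log2(intensity + 363), the 20th percentile of all values, and probe sets were tested when their mean exceeded 434, the 25th percentile of means (6555 probe sets). The fit was limma 3.58.1 in R 4.3.3 (lmFit, eBayes with trend), two-sided, 6 against 6 arrays. The groups have no sample number in common and were not paired. The ratio was tested by an exact permutation test. Correlations used 100000 permutations within groups. The code was tested on simulated data, with 200 changed probe sets among 6555 and noise drawn independently for each probe set and array. It recovered 63.0% of those changed by 0.25 log2, 94.9% at 0.5 and 99.1% at 1, with 4.36% of calls false. The simulation held no array that stood apart, whereas sedentary 17 deviated most on 44.0% of all tested probe sets. These shares therefore check the code and do not give the power of the measured arrays.

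All member probe sets were named. From the partner list, the 4 genes of smallest p in each direction were named, and for Atp2a2 and Pln the 3 probe sets of highest correlation. The members and lists were chosen with earlier results of these data known.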

Additional observations from a re-analysis of the deposited data

Results flagged for a closer look

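In each group of 6 arrays, a highest or lowest value was marked when its gap to the next exceeded Dixon's 95% critical value. Of 62 groups tested (27 probe sets and 4 ratios, in 2 groups each) 10 were marked, and 9 of the 10 were sedentary 17. Chance marks about 1 in 20 of independent groups, but these share arrays and the ratios reuse the probe sets. The share marked over the whole table was not counted. Sedentary 17 deviated most from its group mean on 44.0% of all tested probe sets. That array was above the other sedentary arrays for Slc8a1 on U04937_s_at (1060.0), Atp2b1 on rc_AI172499_at (486) and rc_AI103671_at (269), Atp2b2 on L05557cds_g_at (994), and Itpr1 on U38812_s_at (799) and M64698_s_at (352). It was below them for Slc8a1 on X68812_s_at (2082), Atp2b1 on L04739cds_s_at (668) and Itpr2 on X61677complete_seq_at (310.4). The remaining mark was exercised 7 for Itpr2 (388).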

How the results depend on the processing

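No member passed in any fit with 1 array left out (0 to 0 of 22). Under other settings the count differed from 0 in 2 cases, with 1 member, X76452cds_s_at of Atp2b4, past the threshold with array weights (log2 difference -0.20, adjusted p = 0.0299) and 1 at an adjusted p of 0.10. No partner gene passed in any setting. Over all probe sets 21 passed, and 32 without a filter, 50 with a filter at the median, 42 without trend, 160 with array weights, 144 at an adjusted p of 0.10, 0 by the exact rank-sum test (1060 had an unadjusted limma p under 0.05) and 3 to 37 with 1 array left out. Omitting a sedentary array gave 3 (array 23), 4 (array 24), 6 (array 16), 13 (array 21), 26 (array 17) and 37 (array 13). Omitting an exercised array gave 4 (array 5), 8 (array 7), 12 (array 9), 14 (array 8), 16 (array 4) and 35 (array 1).

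The Atp2a2 to Pln log2 ratio (-0.19) was 0.061 with rc_AA957510_s_at and 0.17 with rc_AA800212_at in place of the brightest probe set, and -0.13 after quantile normalization. With 1 array left out it lay between -0.23 and -0.14 (exact p 0.0108 to 0.123). Of 212 member differences under other settings, 207 kept their sign and side of the threshold. The 4 that changed sign did so with array weights: J04024_at of Atp2a2 (0.0044), Ryr2 (-0.080), L05557cds_g_at of Atp2b2 (0.021) and Itpr2 (-0.0074). With 1 array left out, 12 of 264 changed sign and none passed. The ranges were -0.049 to 0.028 for J04024_at, -0.059 to 0.12 for Ryr2, -0.036 to 0.029 for S67769_s_at, -0.0024 to 0.055 for X68812_s_at and -0.011 to 0.025 for U04934_s_at of Slc8a1, -0.066 to 0.0071 for L05557cds_g_at, and -0.11 to 0.0030 for U38812_s_at of Itpr1. The causes were not tested.

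No other member passed the correlation test with Atp2a2. With the mean over the probe sets of each gene 1 did, Slc8a1 (-0.67), and the sign turned for Casq2 (0.022), Atp2b4 (-0.11) and Itpr1 (0.27). Without the 2 arrays farthest from the median it turned for Pln (-0.096), Ryr2 (0.053), Slc8a1 (0.18), Itpr1 (0.30) and Itpr2 (0.30). No paired analysis was possible because the groups share no replicate numbers.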

Other observations

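When each gene was represented by the mean log2 value of its tested probe sets, Atp2a2 and Slc8a1 ran in opposite directions over the 12 arrays with group means removed. Pearson's r was -0.67 (permutation p = 0.0035, adjusted p = 0.0315 over 9 genes) and Spearman's rho -0.79 (permutation p = 0.00464, adjusted p = 0.0418). Within the 6 exercised samples r was -0.88 and within the 6 sedentary samples -0.62, and it was -0.92 without exercised 8 and sedentary 24. On the brightest probe sets of both genes r was -0.21 (permutation p = 0.507) and rho -0.07 (permutation p = 0.832). The adjustment over 9 genes did not cover the pairs of brightest probe sets. Within Atp2a2 the probe sets did not follow each other (Pearson's r from -0.64 to 0.22). Within Slc8a1 r ran from -0.46 to 0.79. What the mean over the probe sets of each gene stands for is therefore unclear. The exercised and sedentary means of both genes did not differ beyond the test in any probe set.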
